A study of Angelica pubescens with 12 samples.

Results

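Receptor-like kinases with a lectin, cysteine-rich or wall-associated outer part were followed in roots of Angelica pubescens from 4 producing areas. A unigene, that is, a sequence of an assembly made without a genome, was taken as a member when its Swiss-Prot description named a G-type lectin, an L-type lectin or other lectin-domain receptor, a cysteine-rich receptor-like kinase or a wall-associated receptor kinase, and when it had 30 or more counts summed over the 12 libraries. The rule found 269 of 67432 unigenes, of which 175 were of the G-type lectin class, 28 of the L-type lectin class, 42 of the cysteine-rich class and 24 of the wall-associated class. A further 4 unigenes with such descriptions fell below the minimum, with 21.81 to 25.13 counts, and the 3 members closest above it had 30.93 to 34.03 counts.

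RNA was sequenced from roots aged 2 years in 12 libraries, 3 each from Chongqing, Gansu, Hubei and Shanxi, and the design asks how expression differs between producing areas with different ecological environments. The labels name no treatment, genotype or reference area, so every pair of areas was compared. Nothing in the labels says that the replicates are separate plants, so each p-value rests on the spread among these libraries alone, and part or all of that spread may be technical. The libraries held 19920182 to 23319714 estimated counts, and 225 to 246 of the 269 members had at least 1 count in a given library.

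Receptor-like kinases of these families span the plasma membrane, with a part outside the cell that meets sugars, peptides, lipids or the cell wall and a kinase inside that passes the signal on. Lectin-type receptors carry a domain related to sugar-binding proteins, cysteine-rich receptor-like kinases carry repeats with conserved cysteines, and wall-associated kinases bind pectin, the gel-forming polysaccharide of the wall. In Arabidopsis and rice, members of these families take part in immunity, cell death, wall sensing and responses to salt, and in a root they face both the soil and its microbes.

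The annotation of the members was uneven in depth. The 269 unigenes were described by 64 different Swiss-Prot proteins, with 260 unigenes described after Arabidopsis and 9 after rice. They had 168 different best hits in the NR protein database, and for 260 unigenes that hit was a carrot protein. The largest group by far was that of the G-type lectin kinase At4g27290, the best Swiss-Prot hit of 85 members with 49 different NR hits. A kinase domain was annotated in 166 members and an outer domain of any of these classes in 159, and 113 had both. These 113 had a median length of 2295 bases, computed from the deposited counts and FPKM, against 514 bases for the 46 members with an outer domain only and 546 bases for the 57 with neither. Of the 113 with both domains, 69 had their highest mean in Hubei. The same held for 20 of the 53 with a kinase domain only, 14 of the 46 with an outer domain only and 17 of the 57 with neither. Of all unigenes with a Swiss-Prot description and 30 or more counts, 32.7% were highest in Hubei. The lean to Hubei was thus largest in the members with both domains, and the part of length in it was not tested.

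The receptor kinases differed widely between areas, and most often stood highest in Hubei. Of the 269 members, 245 passed the filter on low counts, and 215 of these (87.8%) were called as different in at least 1 area by edgeR's quasi-likelihood test at an adjusted p under 0.05, beside 70.4% of all 60756 unigenes tested and 83.5% of the 26625 tested unigenes with a Swiss-Prot description, called described unigenes from here on. The highest mean of a member lay in Hubei for 120 (44.6%), in Chongqing for 57, in Gansu for 50 and in Shanxi for 42, and among described unigenes 32.7% were highest in Hubei. All 3 Hubei libraries lay above the other 9 for 82 of the 245 tested members (33.5%), beside 14.6% of all tested unigenes and 20% of described ones. The same held in Chongqing for 29 members (11.8%, all unigenes 10.6%, described 11.7%), in Gansu for 26 (10.6%, all unigenes 8.73%, described 10.1%) and in Shanxi for 24 (9.8%, all unigenes 10.6%, described 12.9%). In roots measured as bulk tissue, fewer cells of a type and less RNA per cell cannot be told apart.

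Members also spanned wider ranges than the described unigenes as a whole. The ratio of the highest to the lowest area mean had a median of 7.68 over the 245 tested members and of 2.86 over described unigenes, and it reached 10 for 110 members (44.9%) and for 25.2% of described unigenes. The median was 14.7 in the wall-associated class, 10.9 in the cysteine-rich class, 6.38 in the G-type class and 4.02 in the L-type class. The described unigenes were not matched to the members in level. Members had a median of 1.47 FPKM, and an area mean that rests on few counts can widen such a ratio. The part of level in the wider ranges was not tested.

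The summed level of all members, in counts scaled to a common library size with TMM factors (CPM), was 2701 to 2741 in the Hubei libraries, 2178 to 2265 in Shanxi, 1945 to 2010 in Chongqing and 1847 to 1907 in Gansu. Members took 0.258% to 0.276% of the counts of the Hubei libraries and 0.181% to 0.234% of the others. Each class had its highest sum in Hubei, without overlap between libraries, but the sums of the smaller classes rest on few unigenes.

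**Figure D1:**
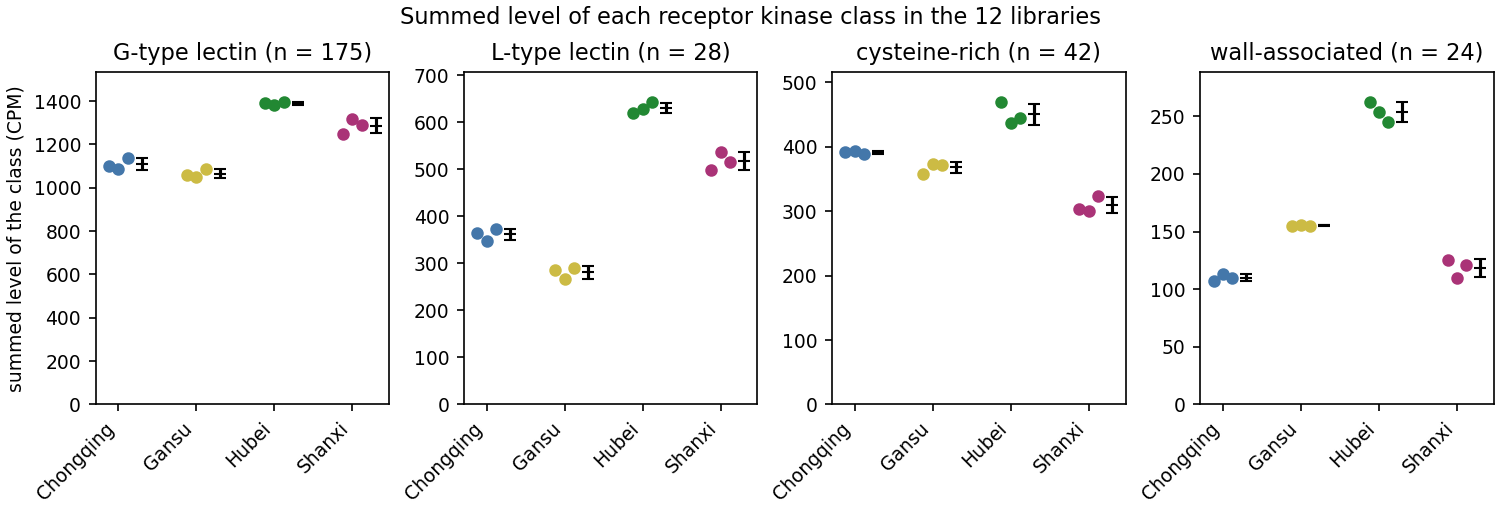
Summed level of each receptor kinase class in CPM, on axes that start at 0, with 1 point per library and the mean ± SD of 3 libraries beside the points. The 3 Hubei libraries lie above the other 9 in every class, and the gap is widest in the wall-associated class (245 to 262 CPM in Hubei, 107 to 156 elsewhere).

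In the G-type class the sum was 1388 ± 6.73 CPM (mean ± SD, n = 3) in Hubei, 1286 ± 33.8 in Shanxi, 1110 ± 25.7 in Chongqing and 1066 ± 20.6 in Gansu. The wall-associated sum was 254 ± 8.75 CPM in Hubei, 156 ± 0.756 in Gansu, 119 ± 7.5 in Shanxi and 110 ± 3.31 in Chongqing, and without its 2 most abundant members it was 137 in Hubei against 69.6 to 122. The cysteine-rich sum was 450 ± 16.8 CPM in Hubei, 392 ± 2.53 in Chongqing, 368 ± 8.92 in Gansu and 310 ± 12.4 in Shanxi, and without its 2 most abundant members, both of them lowest in Hubei, it was 260 in Hubei against 85.9 to 114. The L-type class behaved otherwise. Its sum was 630 ± 11.2 CPM in Hubei, 517 ± 18.9 in Shanxi, 361 ± 11.8 in Chongqing and 281 ± 12.9 in Gansu, yet without its 2 most abundant members it was 235 in Hubei, 240 in Shanxi and 268 in Chongqing, so that Hubei was no longer the highest.

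Between areas, the comparisons with Hubei had the most uneven directions. Chongqing against Hubei had 165 of 245 members called, 49 higher and 116 lower in Chongqing, beside 49.6% of all unigenes called (23.6% higher, 25.9% lower), and 61.9% of described ones. Lower calls made up 47.3% of members and 35.8% of described unigenes, and higher calls 20% and 26.1%. Gansu against Hubei had 162 called, 53 higher and 109 lower in Gansu, beside 50.5% of all unigenes (24% higher, 26.5% lower) and 62.3% of described unigenes (26.4% higher, 35.9% lower). Shanxi against Hubei had 134 called, 38 higher and 96 lower in Shanxi, beside 44.6% of all unigenes (21% higher, 23.5% lower) and 55.4% of described unigenes (24.4% higher, 31% lower). The median log2 fold change over the 245 members was -0.86, -0.57 and -0.43 in these 3 comparisons, or -0.92, -0.60 and -0.43 with members without counts in an area set at their bound, while that of all unigenes was 0.00, 0.01 and 0.00. The 3 comparisons share the Hubei libraries and are not independent of each other.

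Among the other areas the directions were more even. Chongqing against Gansu had 135 members called, 61 higher and 74 lower, beside 38.5% of all unigenes (19.4% higher, 19.1% lower). Chongqing against Shanxi had 160 called, 63 higher and 97 lower, beside 47.8% (23% higher, 24.8% lower), and Gansu against Shanxi had 130 called, 62 higher and 68 lower, beside 44.1% (21.2% higher, 22.9% lower). Of described unigenes 48.9% (24.3% higher, 24.5% lower), 59.8% (26.8% higher, 33% lower) and 56.3% (25.6% higher, 30.7% lower) were called in these pairs. The members' median log2 fold changes were -0.13, -0.32 and 0.00. Counts summed per Swiss-Prot protein over 60 tested proteins gave other splits in these pairs, with 25 higher and 19 lower, 26 and 25, and 15 and 23. Over all 11642 summed proteins the shares in these pairs were 30.6% higher and 30.6% lower, 33.5% and 38.1%, and 33.1% and 36.4%. By class, of the 40 tested cysteine-rich members 24 were lower in Chongqing than in Hubei and 7 higher, 23 were lower in Gansu and 7 higher, and 23 were lower in Shanxi and 4 higher. Of 23 wall-associated members, 13 were lower than in Hubei in each comparison, and 3, 7 and 2 were higher in Chongqing, Gansu and Shanxi. Of 19 L-type members 7 were lower and 6 higher in Chongqing than in Hubei, 11 lower and 3 higher in Gansu, and 8 lower and 4 higher in Shanxi. Gansu was the low area of that class, with 11 of 19 members higher in Chongqing than in Gansu and 3 lower, and with 10 lower and 0 higher in Gansu than in Shanxi.

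**Figure D2:**
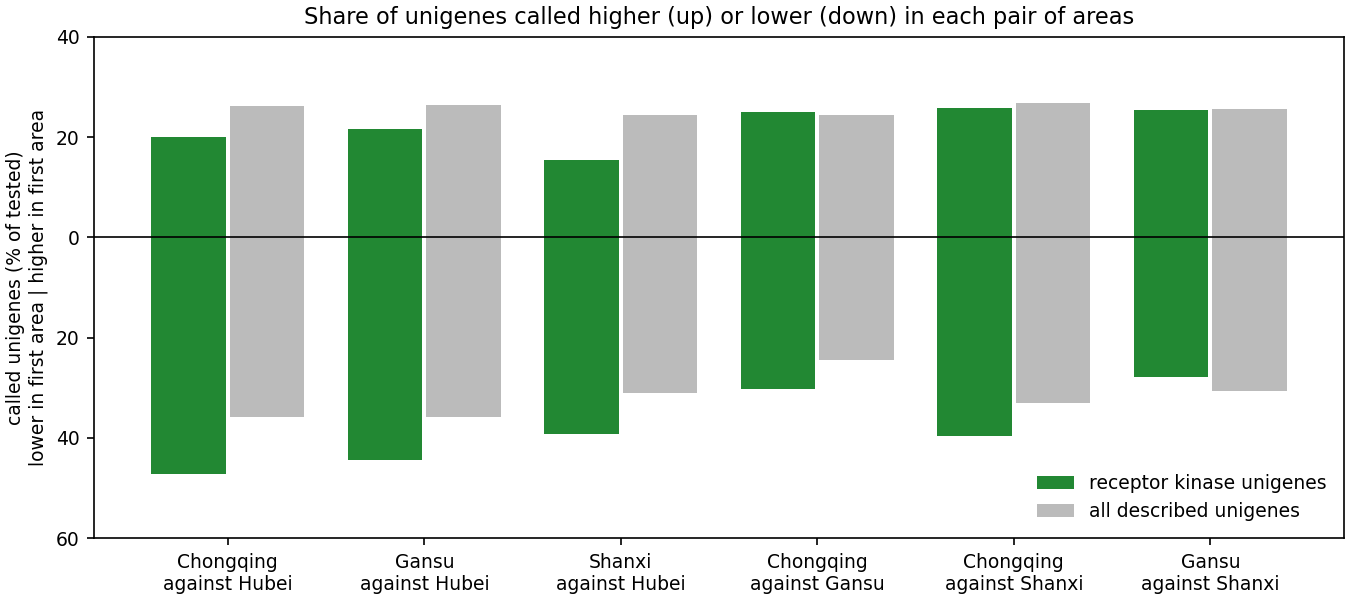
Share of tested unigenes called higher (upward bars) or lower (downward bars) in the first area of each pair, for the 245 tested receptor kinase unigenes (green) and all 26625 tested described unigenes (grey), in percent. In the 3 pairs with Hubei the green bars reach further down than the grey ones (47.3%, 44.5% and 39.2% against 35.8%, 35.9% and 31%) and less far up.

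The L-type lectin receptor kinase S.4 (TRINITY_DN20371_c0_g1_i1_3) had the highest mean FPKM of all members, 73.7. Its level was 242, 249 and 271 CPM in the Hubei libraries, 223, 243 and 230 in Shanxi, 107, 101 and 110 in Gansu and 47.9, 46.7 and 46.7 in Chongqing. Hubei and Shanxi were high and overlapped, Gansu was intermediate and Chongqing low. The log2 fold change of Chongqing against Hubei was -2.43 ± 0.06 (SE, edgeR adjusted p = 5.7e-12), that of Gansu against Hubei -1.26 ± 0.06 (adjusted p = 1.8e-09), and that of Shanxi against Hubei -0.13 ± 0.06 (adjusted p = 0.092). With its counts summed over the unigenes of the same NR hit, a unit chosen after seeing the data, the first of these was -1.97.

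The kinase IV.2 (TRINITY_DN21658_c0_g1_i1_2), whose Arabidopsis counterpart acts in pollen development, was at 142, 144 and 136 CPM in Hubei, 47.7, 46.3 and 44.2 in Chongqing, 44.5, 44.0 and 47.5 in Shanxi and 10.7, 11.3 and 8.9 in Gansu. Hubei stood above all other libraries and Gansu below, while Chongqing and Shanxi overlapped (log2 fold change 0.02 ± 0.08, edgeR adjusted p = 0.85). Gansu was lower than Hubei by a log2 fold change of -3.77 ± 0.09 (edgeR adjusted p = 2.5e-12). The kinase S.5 (TRINITY_DN17614_c0_g1_i3_4) had 91.1, 87.6 and 86.0 CPM in Hubei, 65.8, 65.6 and 68.7 in Shanxi, 41.1, 40.8 and 41.0 in Chongqing and 32.8, 31.7 and 33.7 in Gansu, and no areas overlapped. All 6 of its pairwise differences were called, from -1.43 ± 0.06 for Gansu against Hubei to 0.32 ± 0.06 for Chongqing against Gansu.

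The kinase IX.1, which in Arabidopsis is needed for resistance to the oomycete Phytophthora, had 4 members, of which 2 were tested. The most abundant of them (TRINITY_DN14303_c0_g1_i1_4) was at 8.29 ± 0.598 CPM in Hubei against 3.44 ± 0.777 to 4.59 ± 0.286 elsewhere, and each area was lower than Hubei (log2 fold changes -0.85, -1.25 and -1.27, edgeR adjusted p of 0.0017 or lower). The other tested IX.1 member (TRINITY_DN15301_c0_g1_i1_1) went another way, with 8.61, 6.65 and 9.26 CPM in Chongqing, 2.59, 3.85 and 2.59 in Shanxi, 2.09, 2.14 and 2.34 in Hubei and 0.535, 1.06 and 0.575 in Gansu. Chongqing exceeded Hubei there by a log2 fold change of 1.90 ± 0.26 (edgeR adjusted p = 4.8e-05), and the 4 IX.1 members summed to 13.1 ± 1.15 CPM in Chongqing and 10.8 ± 0.892 in Hubei. Of the 19 tested L-type members 18 were called in any area, some with small differences. The kinase VIII.1 (TRINITY_DN20884_c0_g1_i1_3) had 8.79 to 12 CPM as area means and an edgeR adjusted p of 0.024 for any area. It was under 0.05 in 7 of the 12 fits that left out 1 library, but 0.051 without Chongqing library 1, 0.059 without Hubei library 1 or 2, and 0.093 and 0.062 without Shanxi library 2 and 3. The one member not called, a kinase S.7 (TRINITY_DN21919_c1_g1_i2_3), had 0.651, 1.2 and 3.15 CPM in Hubei against 2.33 to 3.82 in the other libraries, with an edgeR adjusted p of 0.17 that became 0.0031 without Hubei library 3. All 4 members described as IV.1 were too low to be tested.

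Cysteine-rich receptor-like kinases split between a few abundant members low in Hubei and many high there. The highest in the class, and the second highest of all members per length with a mean of 58.6 FPKM, was a cysteine-rich kinase 15 (TRINITY_DN22065_c2_g1_i2_1). It was at 186, 190 and 193 CPM in Chongqing, 143, 151 and 154 in Gansu, 115, 139 and 133 in Shanxi and 129, 117 and 114 in Hubei. Chongqing was the highest area without overlap, and Hubei and Shanxi overlapped. Chongqing exceeded Hubei by a log2 fold change of 0.66 ± 0.07 (edgeR adjusted p = 5.5e-06). Its NR hit was also that of a G-type kinase SD1-1 (TRINITY_DN23426_c0_g1_i6_3) described below, so these unigenes are not separate cases. The other kinase 15 (TRINITY_DN23243_c1_g1_i22_2) followed the same order of areas, with 116 ± 4.49 CPM in Chongqing, 105 ± 0.76 in Gansu, 79.5 ± 16.8 in Shanxi and 70.5 ± 6.37 in Hubei, and a log2 fold change of 0.72 ± 0.12 for Chongqing against Hubei (edgeR adjusted p = 0.00029).

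Cysteine-rich kinase 2, which in Arabidopsis acts in salt tolerance through callose and activates the respiratory burst oxidase RBOHD, was the best hit of 7 members, all tested and all called. Of the 7, 6 had their 3 Hubei libraries above the other 9. Summed, they were at 137 ± 5.22 CPM in Hubei, 69.2 ± 2.6 in Gansu, 36.4 ± 1.82 in Shanxi and 22.2 ± 0.508 in Chongqing. The member with the largest differences (TRINITY_DN21248_c0_g2_i17_2) had 36.8, 39.3 and 46.5 CPM in Hubei, 8.66, 6.13 and 9.11 in Gansu, 0.537, 0.592 and 0.264 in Shanxi and 0.385, 0.217 and 0.508 in Chongqing. Only Shanxi and Chongqing overlapped. The log2 fold change of Chongqing against Hubei was -6.76 ± 0.27 (edgeR adjusted p = 2.5e-10), and -6.65 when summed per NR hit. A second member (TRINITY_DN19343_c0_g1_i1_2) was at 40 ± 1.91 CPM in Hubei and 34.1 ± 2.42 in Gansu, and at 14.4 ± 0.432 in Shanxi and 10.2 ± 0.501 in Chongqing, with a log2 fold change of -1.97 ± 0.08 for Chongqing against Hubei (edgeR adjusted p = 5.1e-10).

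Other cysteine-rich members led in other areas. A kinase 25 (TRINITY_DN23283_c0_g1_i22_4) had 23.8, 24.7 and 26.3 CPM in Shanxi, 6.51, 9.4 and 12.3 in Hubei, 1.97, 1.35 and 1.78 in Chongqing and 0.0486, 0.203 and 0.246 in Gansu, with no overlap between any areas. Gansu against Shanxi gave a log2 fold change of -7.15 ± 0.35 (edgeR adjusted p = 2.7e-09). Another kinase 25 (TRINITY_DN20692_c0_g1_i9_2) was instead highest in Hubei, at 15.2 ± 2.06 CPM against 0.116 ± 0.104 to 1.1 ± 0.166 elsewhere (edgeR adjusted p for any area 7.5e-09). A kinase 21 (TRINITY_DN22859_c0_g1_i1_1) was at 5.35, 6.61 and 4.61 CPM in Chongqing and at 0 to 0.456 in the other 9 libraries (adjusted p for any area 5.8e-07).

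A cysteine-rich kinase 10 (TRINITY_DN15229_c0_g1_i5_2) was found in Chongqing, with 11.1, 13.5 and 13 CPM, and had 1 count in all other libraries together. Its level in Chongqing was at least 288-fold higher than in Hubei and at least 289-fold higher than in Shanxi, taking 3 counts over an area as the floor. The 3 unigenes of its NR hit summed to 18.6 ± 1.93 CPM in Chongqing, 6.32 ± 0.395 in Gansu, 2.56 ± 0.779 in Shanxi and 0.711 ± 0.123 in Hubei, so the summed counts were not limited to 1 area. A more abundant kinase 10 (TRINITY_DN19664_c0_g2_i1_2) was at 10.1 ± 1.26 CPM in Hubei and 5.71 to 6.34 elsewhere (edgeR adjusted p for any area 0.0081, and 0.058 without Hubei library 2). Kinase 28, which in Arabidopsis promotes cell death and immunity, had 1 member (TRINITY_DN28989_c0_g1_i1_1), at 4.57 ± 0.641 CPM in Chongqing, 2.92 ± 0.403 in Hubei, 1.07 ± 0.0035 in Gansu and 0.029 ± 0.0252 in Shanxi. Shanxi had only 2 counts of it, and its edgeR adjusted p for any area was 7e-08. Summed per NR hit the levels were 5.94 ± 1.23 CPM in Hubei, 4.6 ± 0.665 in Chongqing, 1.84 ± 0.374 in Gansu and 0.753 ± 0.2 in Shanxi.

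Wall-associated kinases were the class in which all 23 tested members were called. Kinase-like 14 was the best hit of 4 members and was the most abundant of the class. One of them (TRINITY_DN17119_c0_g1_i2_1) was at 72.7, 67.7 and 62.7 CPM in Hubei, 16.7, 15.7 and 16.4 in Chongqing, 13.6, 17.2 and 13.8 in Gansu and 11, 9.69 and 10.2 in Shanxi. Hubei stood alone and Chongqing and Gansu overlapped. The log2 fold changes against Hubei were -2.05 ± 0.10, -2.19 ± 0.10 and -2.72 ± 0.10 for Chongqing, Gansu and Shanxi (edgeR adjusted p of 1.9e-09 or lower). A second kinase-like 14 (TRINITY_DN22210_c0_g2_i2_3) was at 48.6 ± 1.89 CPM in Hubei and 17.6 ± 1.37 to 24.3 ± 0.988 elsewhere, and another (TRINITY_DN18309_c0_g1_i1_4) at 9.12 ± 0.886 CPM in Hubei and 4.3 ± 0.389 to 7.09 ± 1.07 elsewhere. The remaining one (TRINITY_DN18074_c0_g1_i2_1) was lowest in Hubei, at 13.9 ± 1.43 CPM against 28.7 ± 1.34 in Chongqing, 22.7 ± 1.84 in Shanxi and 22.2 ± 2.2 in Gansu, and Chongqing exceeded Hubei by a log2 fold change of 1.05 ± 0.11 (edgeR adjusted p = 2.4e-06). Summed, the 4 members were at 139 ± 7.59 CPM in Hubei and 57.7 ± 4.66 to 73.6 ± 1 elsewhere.

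Kinase-like 22, known in Arabidopsis as RFO1 for resistance to the wilt fungus Fusarium oxysporum, had 1 member (TRINITY_DN19387_c0_g1_i2_3). Its levels were 26.5, 21.6 and 22 CPM in Hubei, 14.7, 12.4 and 13.8 in Shanxi, 6.13, 6.73 and 5.66 in Gansu and 3.55, 3.44 and 3.26 in Chongqing, and no areas overlapped. The log2 fold change of Chongqing against Hubei was -2.77 ± 0.13 (edgeR adjusted p = 1.4e-09). Kinase-like 20 (TRINITY_DN8354_c0_g1_i1_2) was ordered in another way, with 28.5, 26.6 and 23.5 CPM in Hubei, 10.6, 13.1 and 11.3 in Gansu, 6.04, 5.54 and 6.55 in Shanxi and 1.28, 1.26 and 0.973 in Chongqing. Here Chongqing against Hubei gave a log2 fold change of -4.48 ± 0.16 (edgeR adjusted p = 9e-11).

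The wall-associated kinases proper, numbered 1 to 5 in Arabidopsis, went in several directions. Kinase 2, which Arabidopsis needs for cell expansion, had 4 members that summed to 11.7 ± 1.1 CPM in Hubei, 2.35 ± 0.702 in Gansu, 1.94 ± 0.148 in Shanxi and 0.243 ± 0.202 in Chongqing. Its most abundant member (TRINITY_DN6422_c0_g1_i1_2) had 9.95, 7.21 and 7.5 CPM in Hubei and 0 to 0.128 in Chongqing (edgeR adjusted p for any area 3.1e-08). Kinase 5 was the best hit of 5 members that summed highest in Gansu, 39.5 ± 4.26 CPM, against 21.4 ± 4.33 in Hubei, 16 ± 1.53 in Shanxi and 5.14 ± 1.9 in Chongqing. The most abundant of these (TRINITY_DN24441_c1_g1_i10_3) was at 27.8, 19.9 and 27.2 CPM in Gansu and 2.74 to 10.2 in the other 9 libraries, and Gansu exceeded Hubei by a log2 fold change of 1.85 ± 0.34 (edgeR adjusted p = 0.00047).

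Another kinase 5 (TRINITY_DN17945_c0_g2_i1_3) was nearly missing from Chongqing. It had 2 counts in the 3 Chongqing libraries together, and was at 9.78, 10.3 and 10.5 CPM in Gansu, 9.11, 7.17 and 8.23 in Hubei and 8.59, 8.42 and 7.56 in Shanxi, levels that overlapped between Hubei and Shanxi. No other unigene shared its NR hit, and its edgeR adjusted p for any area was 6.1e-10. Kinase 1 (TRINITY_DN19722_c0_g1_i4_1) was at 15.7 ± 2.27 CPM in Chongqing and 14.9 ± 2.49 in Gansu, above 7.67 ± 0.988 in Shanxi and 7.01 ± 1.27 in Hubei, with a log2 fold change of 1.16 ± 0.18 for Chongqing against Hubei (edgeR adjusted p = 0.00011). Summed over its NR hit the order differed, with 61.8 ± 1.88 CPM in Shanxi and 51.6 ± 6.47 in Gansu above 25.3 ± 1.5 in Chongqing and 14.3 ± 1.07 in Hubei.

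**Figure D3:**
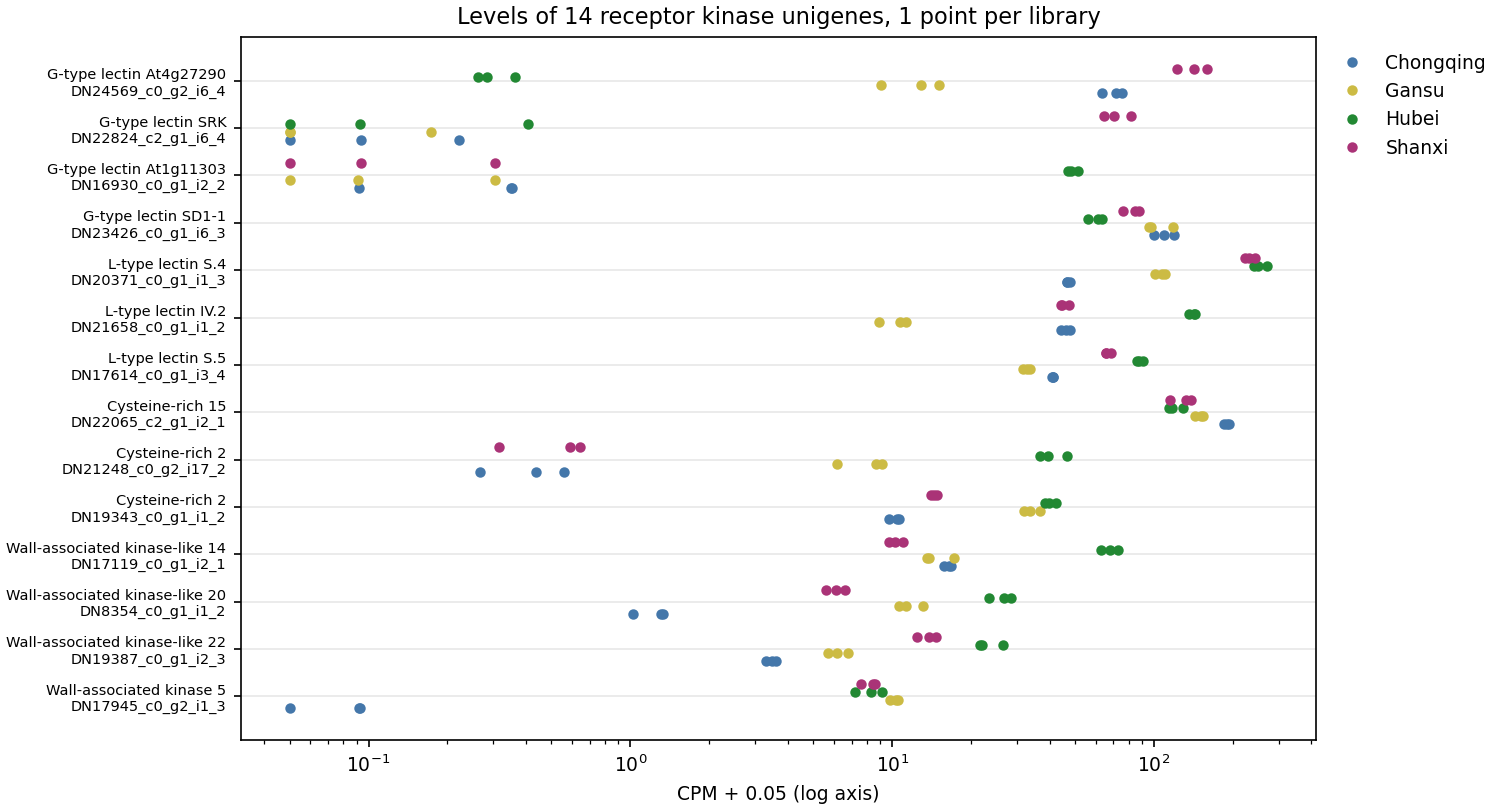
Levels of 14 receptor kinase unigenes in the 12 libraries, as CPM plus 0.05 on a logarithmic axis, with 1 point per library coloured by area. Hubei (green) is the highest or shares the highest place for most wall-associated, L-type and cysteine-rich kinase 2 unigenes, while the G-type At4g27290 unigene is at 0.213 to 0.312 CPM in Hubei and up to 159 CPM in Shanxi.

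G-type lectin receptor kinases, whose lectin domain resembles the agglutinin of snowdrop and which include relatives of the self-incompatibility receptor SRK of Brassica, were the largest class. Of 163 tested members 72 were lower and 33 higher in Chongqing than in Hubei, 62 lower and 36 higher in Gansu, and 52 lower and 28 higher in Shanxi. Lower calls made up 44.2%, 38% and 31.9% of the class, beside 35.8%, 35.9% and 31% of described unigenes. Higher calls made up 20.2%, 22.1% and 17.2%, beside 26.1%, 26.4% and 24.4%. For Gansu and Shanxi the share of lower calls was thus near that of described unigenes. A kinase SD1-1 (TRINITY_DN23426_c0_g1_i6_3), with a mean of 41.5 FPKM the highest of the class per length, was at 109, 99.9 and 119 CPM in Chongqing, 97.4, 95.8 and 118 in Gansu, 76.1, 87.5 and 84.8 in Shanxi and 55.8, 63.2 and 61.0 in Hubei. Hubei was the lowest area without overlap, and Chongqing and Gansu overlapped. Chongqing exceeded Hubei by a log2 fold change of 0.87 ± 0.09 (edgeR adjusted p = 5.2e-06). A kinase B120 (TRINITY_DN23751_c0_g5_i1_4) was in contrast highest in Hubei, at 74.8 ± 4.79 CPM against 49.7 ± 3.82 to 57.8 ± 3.61, a range in which the other areas did not pass the test against each other.

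The member with the smallest p of the class was a kinase At4g27290 (TRINITY_DN24569_c0_g2_i6_4). It had 122, 159 and 142 CPM in Shanxi, 71.5, 63.3 and 75.2 in Chongqing, 12.9, 9.06 and 15.0 in Gansu and 0.233, 0.312 and 0.213 in Hubei. No areas overlapped, and Hubei was the lowest by far. A log2 fold change of 9.09 ± 0.25 was found for Shanxi against Hubei and of 8.09 ± 0.26 for Chongqing against Hubei (edgeR adjusted p = 2.4e-11 and 2.9e-11). It was the single unigene of its NR hit. A kinase At2g19130 (TRINITY_DN3430_c0_g1_i1_2), also alone in its NR hit, was at 14.5, 13.9 and 14.6 CPM in Hubei and 6.67, 6.47 and 5.76 in Shanxi, but at 0.123 to 0.456 in the Chongqing and Gansu libraries. Its log2 fold change of Chongqing against Hubei was -6.12 ± 0.31 (edgeR adjusted p = 2.3e-09).

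Several G-type unigenes were found almost in 1 area alone. A kinase SRK (TRINITY_DN22824_c2_g1_i6_4) was at 64.6, 81.4 and 70.6 CPM in Shanxi and 0 to 0.356 in the other 9 libraries (edgeR adjusted p for any area 4.7e-11). The 4 unigenes of its NR hit together were at 162 ± 7.38 CPM in Shanxi and 83 ± 3.6 to 96.9 ± 8.65 elsewhere. A kinase At1g11303 (TRINITY_DN16930_c0_g1_i2_2) was at 46.9, 48.0 and 51.2 CPM in Hubei and 0 to 0.304 elsewhere (adjusted p for any area 1.9e-10), with sums per NR hit of 63.6 ± 1.07 CPM in Hubei and 13 ± 1.53 to 19.3 ± 2.11 elsewhere. In both cases the area kept its lead in the sum, but the size of the difference was much smaller.

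For other G-type unigenes the difference held in the sum or the unigene stood alone in its NR hit. A kinase At4g27290 (TRINITY_DN23315_c0_g1_i1_2) was at 21.3, 21.0 and 20.2 CPM in Hubei, 3.0, 3.13 and 3.43 in Shanxi and 0 to 0.254 in Chongqing and Gansu, and its NR hit summed to 38.7 ± 1.46 CPM in Hubei, 6.39 ± 0.571 in Shanxi and 0.271 ± 0.0216 in Chongqing. Another (TRINITY_DN24672_c2_g2_i2_4) was at 19.7, 15.3 and 19.3 CPM in Shanxi and 0 to 0.616 elsewhere. A short At4g27290 unigene of 781 bases (TRINITY_DN25440_c0_g1_i1_3) had 6.98, 8.33 and 11.2 CPM in Shanxi and no count in the other 9 libraries, which is at least 187-fold higher than Gansu and at least 203-fold higher than Hubei. In all, members with 10 or more counts in each library of 1 area and 3 or fewer in the other 9 together numbered 4 in Gansu, 3 in Shanxi, 2 in Hubei and 1 in Chongqing, or 0.372% to 1.49% of members, beside 0.704% to 0.814% of all unigenes with 30 or more counts.

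Within the At4g27290 group the single unigenes varied far more than their sum, as holds by construction for members that peak in different areas. The 80 tested members of the group had a median ratio of highest to lowest area mean of 8.95 (all tested members 7.68), and the ratio reached 100 for 11 of them. The 85 members summed to 826 ± 21.7 CPM in Shanxi, 791 ± 6.22 in Hubei, 708 ± 13.2 in Chongqing and 697 ± 9.83 in Gansu. They had their highest mean in Hubei in 33 cases, in Chongqing in 20 and in Gansu and Shanxi in 16 each.

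This spread was also seen among unigenes with the same NR hit. A single carrot protein was the best NR hit of 10 unigenes, 9 of them members described as At4g27290 (chosen for display after their values were seen). One of these (TRINITY_DN21608_c0_g1_i5_4) was at 99.8 CPM in Gansu and 10.5 in Hubei as area means, another (TRINITY_DN23052_c0_g2_i10_2) at 56.5 in Hubei and 19.8 in Gansu, and one more (TRINITY_DN23093_c0_g3_i2_1) at 19.1 in Chongqing and 0.0736 in Shanxi. A further one (TRINITY_DN23052_c0_g7_i1_2) was at 10.4 CPM in Hubei and 0.0571 in Chongqing. Their 10 unigenes summed to 242 ± 6.83 CPM in Gansu, 206 ± 4.03 in Chongqing, 166 ± 2.4 in Shanxi and 135 ± 5.27 in Hubei, so Hubei was the lowest in the sum.

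A second NR hit joined 5 members. Of these, TRINITY_DN22134_c0_g2_i3_2 was at 26.5, 24.9 and 26.4 CPM in Hubei and 0.0428, 0.174 and 0.127 in Chongqing, while TRINITY_DN22667_c0_g5_i1_2, a piece of 406 bases described as SD1-13, was at 7.75, 8.44 and 7.91 CPM in Chongqing and 0 to 0.651 in the other 9 libraries. Another of the 5 (TRINITY_DN25440_c1_g1_i13_3) was highest in Gansu, with a mean of 19.3 CPM against 3.36 to 5.18. The 5 unigenes summed to 38.2 ± 4.15 CPM in Hubei, 32.8 ± 2.42 in Gansu, 24.8 ± 1.28 in Shanxi and 24 ± 1.35 in Chongqing. The log2 fold change of Chongqing against Hubei was -7.76 ± 0.27 for the first of these unigenes (edgeR adjusted p = 6.2e-11) and -0.55 for the sum.

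Among all receptor kinases, 174 of the 269 members shared their NR hit with at least 1 other unigene. Counts summed per NR hit gave 157 tested proteins, of which 153 were called in any area, beside 89.1% of all 24806 summed proteins. Chongqing against Hubei had 123 of these called, 36 higher and 87 lower, and 55.4% were lower beside 36.1% of all summed proteins. Gansu was lower than Hubei for 82 (52.2%, all summed proteins 35.5%) and Shanxi for 75 (47.8%, all summed proteins 33.9%). Of the 165 member unigenes called between Chongqing and Hubei, 150 were called in the same direction in the sum and 12 had the opposite direction, and the median size of the log2 fold change was 2.47 for the unigenes and 1.85 for their sums. The 66 called members alone in their NR hit are their own sums, so their agreement was set in advance. Both medians include them. Among the 85 tested members whose NR hit holds no other unigene, 51 were lower and 15 higher in Chongqing than in Hubei (60% lower, beside 37.4% of the 17097 tested unigenes with such a hit).

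**Figure D4:**
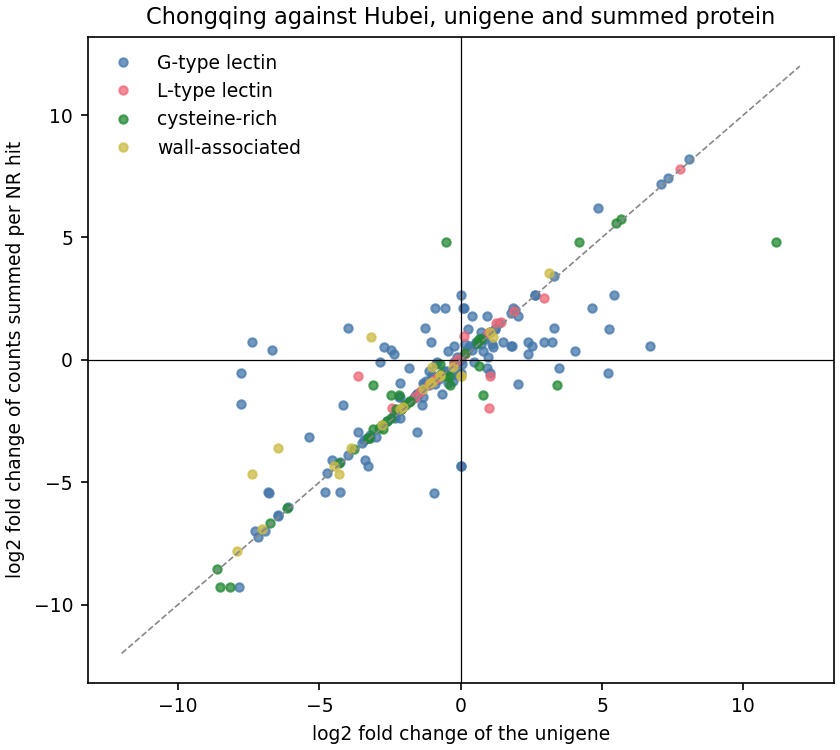
Log2 fold change of Chongqing against Hubei for 244 receptor kinase unigenes (horizontal axis) and for the counts summed over all unigenes with the same NR hit (vertical axis), coloured by class, with the line of equality dashed. Points near the line have a sum that moves like the unigene, as unigenes alone in their NR hit do by construction. Points near the horizontal zero line but far from the vertical zero line have unigenes that differ between the areas while the sum differs little. G-type members (blue) make up 163 of the 245 tested members.

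The last number of an identifier, 1 to 4, whose meaning is not given in the sources used here, moved with the area of the highest level. Of 89 members ending in 2, 66 (74.2%) were highest in Hubei, beside 55.4% of described unigenes ending in 2. Of 65 members ending in 3, 31 (47.7%, described 38.1%) were highest there, of 53 ending in 1, 12 (22.6%, described 17.2%), and of 62 ending in 4, 11 (17.7%, described 18.4%). Members ending in 1 were most often highest in Chongqing (28 of 53) and those ending in 4 in Shanxi (29 of 62). The part of this number in the differences between areas was not tested.

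**Figure D5:**
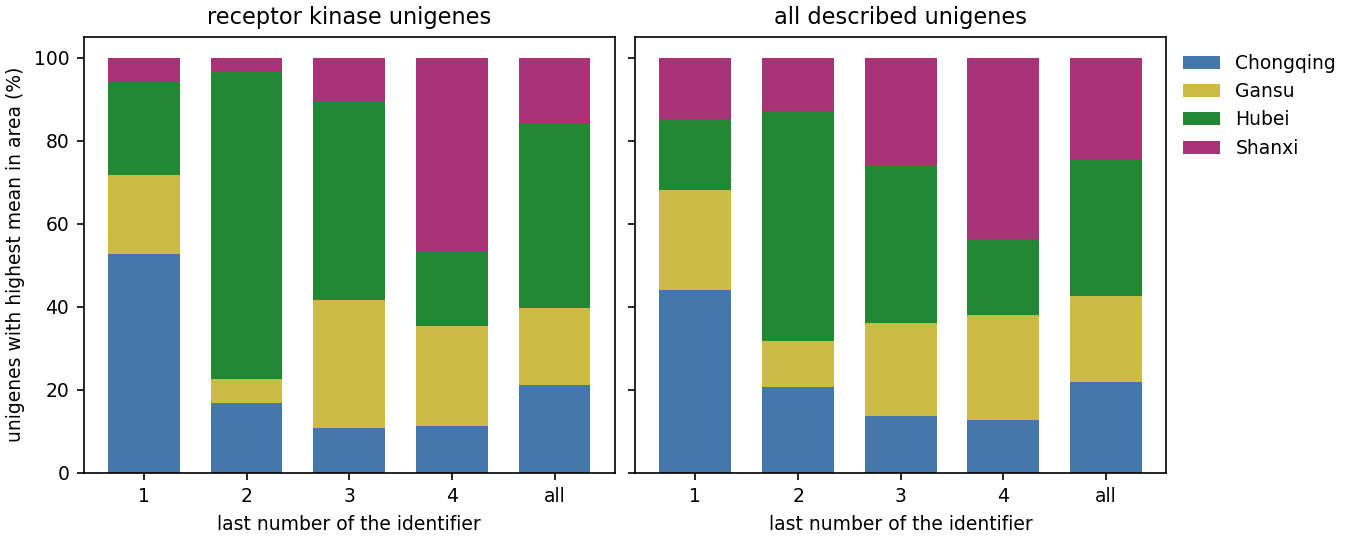
Share of unigenes with their highest mean in each area, in percent, by the last number of the identifier, for the receptor kinase unigenes (left) and all described unigenes (right), with all endings together in the last bar of each panel. Members ending in 2 were highest in Hubei in 74.2% of cases and those ending in 4 in 17.7%, and the described unigenes show the same order (55.4% and 18.4%).

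Some members did not pass the test, and some proteins with a known role were missing among the members. Of the 245 tested members 30 were not called in any area. Among the more abundant of these, a kinase At4g27290 (TRINITY_DN20279_c0_g5_i1_4) had area means of 2.22 ± 0.424 to 3.29 ± 1.05 CPM (edgeR adjusted p = 0.36) and a kinase B120 (TRINITY_DN24308_c0_g2_i1_4) of 1.74 ± 0.869 to 3.46 ± 1.98 CPM (adjusted p = 0.22). The kinase SD1-29, which in Arabidopsis senses fatty acids of bacteria, had 1 member (TRINITY_DN31779_c0_g1_i1_3) with 0.101 to 0.73 CPM in Gansu, 0.178 to 0.298 in Hubei, 0 to 0.268 in Shanxi and no count in Chongqing, too low to be tested. SD2-5 (TRINITY_DN21459_c0_g1_i1_2) was at 12.5 ± 0.516 CPM in Hubei and 2.86 ± 0.625 in Chongqing, a log2 fold change of -2.13 ± 0.18 (edgeR adjusted p = 4.5e-07). The rice-described kinase LECRK3, which in rice gives resistance to the brown planthopper, had 6 members, all called, that summed to 61.9 ± 5.66 CPM in Hubei and 8.84 ± 1.12 to 21.4 ± 2.73 elsewhere. Another 8 proteins sought for their known roles, among them cysteine-rich kinases 5, 13, 29, 36 and 45, were the best hit of no member.

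Genes of the same signalling routes were counted from lists chosen by description, and their shares stand beside those of described unigenes given above (35.8%, 35.9% and 31% lower and 26.1%, 26.4% and 24.4% higher in Chongqing, Gansu and Shanxi than in Hubei). Respiratory burst oxidases, which make the superoxide of the immune response, had 7 tested unigenes, 4 of them lower and 1 higher than in Hubei in each of the 3 comparisons, and summed to 296 to 346 CPM in the Hubei libraries and 86 to 183 elsewhere. FERONIA-type receptors, which watch over wall integrity, summed to 584 to 617 CPM in Hubei and 172 to 232 elsewhere, with 9 of 13 lower in Chongqing and 2 higher, 6 lower and 4 higher in Gansu, and 5 lower and 4 higher in Shanxi. LysM receptors, which bind chitin and related sugars, summed to 374 to 394 CPM in Hubei and 174 to 292 elsewhere, with 11 of 20 lower in Chongqing than in Hubei and 4 higher, 9 lower and 1 higher in Gansu, and 9 lower and 2 higher in Shanxi.

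Partner and downstream proteins were counted likewise. Co-receptors of the BAK1 and SOBIR1 type summed to 305 to 326 CPM in Hubei and 147 to 199 elsewhere, with 3 of 8 lower in Chongqing than in Hubei and 0 higher, 4 lower and 1 higher in Gansu, and 5 lower and 0 higher in Shanxi. Of 71 receptor-like cytoplasmic kinases 32 were lower and 12 higher in Chongqing than in Hubei, 32 lower and 20 higher in Gansu, and 31 lower and 12 higher in Shanxi. Of 66 MAP kinases and their kinases 35 were lower and 8 higher in Chongqing, 29 lower and 16 higher in Gansu, and 26 lower and 13 higher in Shanxi. Plasmodesmata-located proteins, which carry the outer domain of cysteine-rich kinases, had, together with callose synthase 12, 6 of 11 lower than in Hubei in Chongqing, 6 in Gansu and 2 in Shanxi, and 0 higher in each. Pectinesterases and polygalacturonases, which alter the pectin that wall-associated kinases bind, differed in order, with sums of 4065 to 4257 CPM in Shanxi, 2923 to 3228 in Hubei, 1410 to 1443 in Gansu and 1212 to 1243 in Chongqing. Of the 108 tested, 70 were lower and 18 higher in Chongqing than in Hubei, 61 lower and 24 higher in Gansu, and 33 were lower and 41 higher in Shanxi than in Hubei.

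The unigenes most like a class in pattern were found by Spearman's correlation, over the 12 libraries, with the summed CPM of the class among 14175 described unigenes, as a description. For the L-type sum these were the transcription factor bHLH62 (TRINITY_DN18344_c0_g1_i5_2, rho of 1) and the GPI-anchored protein LLG1 (TRINITY_DN15587_c0_g1_i1_4, rho 0.993). For the cysteine-rich sum they included protein phosphatase 2C 73 (TRINITY_DN13709_c0_g1_i4_2, rho 0.993), and for the wall-associated sum Squamosa promoter-binding-like protein 3 (TRINITY_DN24433_c0_g1_i6_4, rho 0.986). The 12 points of each correlation fall into 4 areas and share the library totals.

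Markers of tissues were summed as a check of the labels. Root endodermis and rhizodermis markers summed to 442 to 583 CPM over the 12 libraries, with 17 of 26 detected in every library and the lowest sums in Hubei (442 to 482). Leaf and green tissue markers (18 of 33 in every library) summed to 299 to 344 CPM in Gansu and 490 to 535 in Shanxi. They were higher in Hubei (560 to 629) and Chongqing (594 to 625), which overlapped. Phloem markers summed to 83.3 to 93.3 CPM in Chongqing, 194 to 212 in Hubei, 271 to 297 in Gansu and 368 to 407 in Shanxi (13 of 22 in every library), and xylem markers to 3.18 to 12.6 CPM, highest in Gansu (5 of 16). The part of these differences in the receptor kinase levels was not tested.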

How the data were processed

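Total RNA of root was sequenced in 12 libraries, per the labels' protocols. The authors deposited estimated counts per unigene, which need not be whole, and FPKM, a level corrected for unigene length and depth. The submitters' processing notes list RSEM, Bowtie2, featureCounts, DESeq2, Trimmomatic and FastQC. Their versions and roles, and how reads were divided among similar unigenes, were not given in the sources used here. All columns of per-sample values had a sample.

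The members, gene lists and tests were chosen with earlier results of these data known. Counts were rounded and tested in 1 fit of all 12 libraries with the quasi-likelihood test of edgeR 4.0.16 (R 4.3.3) after TMM scaling and filterByExpr by area, with 8 residual degrees of freedom. Benjamini-Hochberg adjustment ran over all 60756 unigenes tested, and an adjusted p under 0.05 was called. Each SE was taken from the size of the log2 fold change over the root of its F statistic. CPM values use TMM factors, and the floor is 3 counts over an area. Floors cover counting error only.

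Named unigenes followed a rule. It took, per class, the 3 smallest and 2 largest p for any area, at a log2 of mean CPM plus 0.5 of 1 or more, and the 2 highest mean FPKM. It took, per pair, the 3 highest and 3 lowest called fold changes without overlap and with more than 3 counts in each area. It also took up to 3 unigenes limited to an area and the most abundant unigene of proteins with known roles. This gave 58 unigenes, of which the text gives a part. Other unigenes shown to compare members of 1 NR hit or 1 protein were chosen after their values were seen.

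On simulated counts for Chongqing against Hubei with 60756 unigenes, 100 were changed 4-fold and 100 were changed 2-fold. The fit recovered 85% of the 4-fold and 18% of the 2-fold changes, or 95.5% and 25% for unigenes of at least 1 CPM. In the data 49.6% of unigenes were called in this pair, far more than were changed here. The adjusted p depends on that share, so these values do not give the recovery in the data. Alternatives were RLE scaling, DESeq2 1.42.0, other count filters, limma 3.58.1 on log2(FPKM + 1) and log2(FPKM + 0.1), a replicate block, fits of 2 areas, sums per Swiss-Prot or NR hit, and leaving out each library.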

Additional observations from a re-analysis of the deposited data

How the results depend on the processing

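The counts of called receptor kinases stayed within 1.5 times of those given under RLE scaling, DESeq2, both other count filters, limma on FPKM, fits of 2 areas and sums per NR hit (the last chosen after seeing the data). Summed per Swiss-Prot hit, 60 proteins were tested, by construction fewer units. Of these 58 were called in any area (all summed proteins 91.1%), 52 for Chongqing against Hubei (18 higher, 34 lower, all summed proteins 35.1% and 37.5%), 44 for Gansu against Hubei (all 72.5%), 44 for Shanxi against Hubei (all 67.6%), 44 for Chongqing against Gansu (25 higher, 19 lower), 51 for Chongqing against Shanxi (26 higher, 25 lower) and 38 for Gansu against Shanxi, so the lean to Gansu and Shanxi over Chongqing did not hold in that unit. The split by direction for Gansu and Shanxi against Hubei is not given in that unit, so no lean is read from those pairs. Without 1 library, calls ran from 214 to 224 for any area, 162 to 176 for Chongqing against Hubei, 149 to 165 for Gansu against Hubei, 120 to 140 for Shanxi against Hubei, 125 to 142 for Chongqing against Gansu, 142 to 162 for Chongqing against Shanxi and 115 to 128 for Gansu against Shanxi. With the replicate block, members called in any area numbered 211, and 163, 151, 125, 129, 147 and 119 in the pairs in the order of the Swiss-Prot sums. Same-numbered libraries correlated at -0.134 to 0.116 and others at -0.164 to 0.176 in their deviations from area means, so the numbers were not taken as pairs. Many named fold changes were chosen for a small p or a large called size, or compared the highest with the lowest area. Such a choice favours keeping the call under an alternative. Of 1650 comparisons of a named fold change with an alternative, 1640 kept direction and call, 5 lost the call and 5 reversed. The 5 reversed when summed per NR hit, namely TRINITY_DN22667_c0_g5_i1_2 for Chongqing against Hubei (-0.55) and Gansu (-0.46), TRINITY_DN23052_c0_g7_i1_2 for Shanxi against Hubei (0.34) and Chongqing against Hubei (0.73), and TRINITY_DN23093_c0_g3_i2_1 for Chongqing against Gansu (-0.24). By construction each of these sums holds other unigenes of the same hit, while a member alone in its hit is its own sum. Sums per NR hit also shift the scale, by a median log2 of 0.12 for Chongqing and 0.13 for Gansu against Hubei over 84 members alone in their hit. Sums per assembly gene were not run, since of 3934 identifier stems used under several last numbers 2 had the same Swiss-Prot hit throughout. Reads divided among similar unigenes limit every value of a single unigene.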
